A study of Mus musculus with 12 samples.

Results

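Tuft cell genes of the neonatal thymus were followed across the genotypes of the FCG mouse, in which gonadal sex and sex chromosomes are separated. The 10 genes were listed by name for their roles in tuft cells (Pou2f3, Trpm5, Dclk1, Avil, Gnat3, Plcb2, Il25, Gfi1b, Alox5 and Ptgs1), and each was read from the array's probe set that carries its symbol alone. Of these 10 genes, 9 had such a probe set, 1 each, among 19938 genes named in this way. Ptgs1 was not analysed here.

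The thymus harbours tuft cells as one of the mimetic cell types of its medulla, that is, epithelial cells which take on the expression program of a peripheral tissue. Tuft cells everywhere depend on the transcription factor Pou2f3, carry the signalling chain of taste cells (a G protein, a phospholipase C and the cation channel Trpm5), and release interleukin 25, acetylcholine and lipid mediators. In the thymic medulla they appear after birth and are known for bitter taste receptors and for interleukin 25, which acts on type 2 lymphocytes.

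RNA came from the epithelium and stroma left after thymocytes were removed from thymi of pups at day 7, on 12 whole-transcript Affymetrix mouse arrays. All mice were of the C57BL/6J background. In FCG mice the Y chromosome lacks Sry and the testis is given by an autosomal Sry transgene, so gonadal sex and chromosome complement vary apart. The groups were XYM (gonadal males with an X and a Y, 2 arrays), XXM (gonadal males with a pair of X chromosomes, 4 arrays), XYF (gonadal females with an X and a Y, 3 arrays) and XXF (gonadal females with a pair of X chromosomes, 3 arrays). The transgene holds several Sry copies at another site than the Y, so XYM are not wild type males. The labels also number the arrays, and runs of 4 consecutive numbers are called array sets here. This division was made for the tests, and the sources used here name no such batches. Values are linear intensities with no detection call, called signal here, and differences are given on the log2 scale. Whether the arrays of a genotype came from different pups is not given in the sources used here, and the tests therefore cover the array-to-array spread alone, part of which may be technical.

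The labelled complements matched their marker genes. Signal of Xist, transcribed from the inactive X, lay between 40.0 and 79.9 on the 5 XY arrays, against 8505 to 9884 on the 7 XX arrays. The Y-linked genes Eif2s3y, Kdm5d and Uty also separated the complements without overlap. Epithelium was present, since 11 of 12 medullary markers (Krt5, Aire and Cd40 the brightest) and 10 of 10 cortical markers (Prss16, Ccl25 and Ctsl) lay above the reference described next. The tissue was not free of other cells: 11 of 11 thymocyte markers, 10 of 10 macrophage markers and 8 of 8 fibroblast markers lay above it too, against 0 of 8 neutrophil, 4 of 10 mast cell, 3 of 6 megakaryocyte, 1 of 6 erythroid and 2 of 6 neural markers. Of all named genes 56.5% lay above it, a share that none of the lists from neutrophil to neural exceeded. In such bulk tissue, fewer cells of a type and less RNA per cell cannot be told apart.

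To place the tuft cell genes on the arrays' scale, each was set against 1035 probe sets of olfactory receptors (Olfr), genes of the nasal epithelium that serve here as a dim reference. Their 95th percentile was a signal of 309.5 and their median 107.0. Plcb2, Gfi1b, Dclk1 and Pou2f3 lay above the percentile on all 12 arrays. The other 5, Alox5, Il25, Trpm5, Avil and Gnat3, lay below it on every array. Thus 4 of 9 genes passed, against 56.5% of all named genes. Probe sets differ in how well they hybridise, so the percentile places a gene among dim probe sets but gives no order among the 9 genes. The count depends on where the line is drawn: 1 gene (Plcb2) passed the 99th percentile of Olfr, a signal of 458.8, and 8 passed the 95th percentile of the vomeronasal receptors, a signal of 172.

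**Figure D1:**
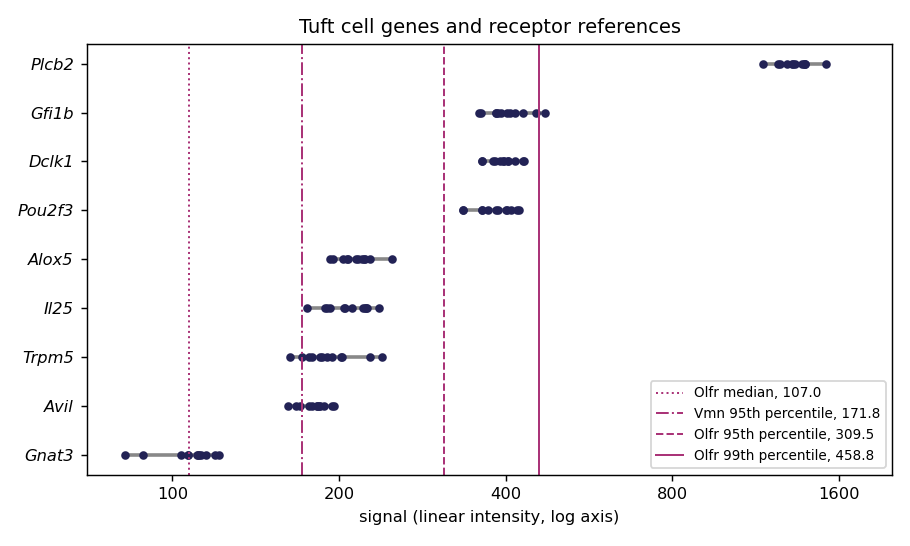
Signal of the 9 tuft cell genes on the 12 arrays (points; the grey bar spans lowest to highest) on a log axis, with vertical lines at percentiles of the olfactory (Olfr) and vomeronasal (Vmn) receptor probe sets. Plcb2, Gfi1b, Dclk1 and Pou2f3 lie right of the Olfr 95th percentile of 309.5 on every array, and the other 5 genes left of it.

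Pou2f3, the POU domain factor without which tuft cells do not form, had a mean signal of 383, at the 98th percentile of Olfr probe sets. Its signal was 402 and 335 in XYM, 372, 424, 335 and 385 in XXM, 401, 388 and 419.6 in XYF, and 409, 363 and 363 in XXF. No genotype stood apart from the others, and the male arrays reached both below and above those of the females. Gfi1b, a zinc finger repressor of tuft cells that is also used by megakaryocytes and red cell precursors, averaged 404, at the 98.3rd percentile. Its signal was 387 and 472 in XYM, 385, 407, 429.9 and 416 in XXM, 358, 362 and 454 in XYF, and 385, 392 and 402 in XXF. The highest value belonged to XYM and the next to XYF, and all genotypes overlapped. As Gfi1b is no tuft cell gene alone, markers of these other lineages are set beside it. Of the megakaryocyte markers, 3 of 6 lay above the Olfr 95th percentile (Treml1 681, Itgb3 431 and Gp9 353). Of the erythroid markers, 1 of 6 did (Tfrc 1126), while 56.5% of all named genes lay above it. Across the 12 arrays Gfi1b correlated with the mean of the megakaryocyte list (r = 0.77, rho = 0.86), with adjusted permutation p-values over 99 such relations of 0.056 for r and 0.068 for rho, and r was 0.87 without the 2 arrays farthest from the median and 0.58 after the mean of each array set was removed. The relation was not particular to that list. With the neural list r was 0.76 and rho 0.82, and r was 0.68 after the mean of each array set was removed. With the neutrophil list r was 0.70, with the other mimetic cells of the medulla 0.69 and with the erythroid list 0.60.

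Plcb2, the phospholipase C that taste and tuft cells share with leukocytes, was the only one of the 9 genes whose mean, 1331, exceeded that of every Olfr probe set. Its signal was 1251 and 1292 in XYM, 1383, 1331, 1389 and 1374 in XXM, 1317, 1243 and 1389 in XYF, and 1320.1, 1165 and 1516 in XXF. The XXF arrays alone spanned the values of all the others. Leukocyte markers were bright on the same arrays, with a summed signal of the 10 macrophage genes of 5297 to 7148 in males and 5274 to 6761 in females, and of the 11 thymocyte genes of 38060 to 42857 in males and 37998 to 43798 in females. Across the arrays, Plcb2 and the mean of the macrophage list had r = -0.04 and rho = 0.15. With the thymocyte list r was 0.31 and rho 0.15. The adjusted permutation p-values for r were 0.924 and 0.564. After the mean of each array set was removed, r was -0.20 with the macrophage list and 0.47 with the thymocyte list. What part leukocytes had in the Plcb2 signal was not tested.

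Trpm5, the channel that depolarises taste and tuft cells, averaged 193, at the 82.7th percentile of Olfr. Its signal was 185 and 239 in XYM, 172, 179, 190.1 and 228 in XXM, 163, 203 and 202 in XYF, and 177, 187 and 194 in XXF. A male array of each complement lay above all females, while the remaining male arrays lay among them. Gnat3, the taste G protein alpha subunit gustducin, averaged 108, at the 50.2nd percentile, so that its signal could not be told from that of a typical olfactory receptor probe set. Its signal ran from 88.5 to 122 in males, with a median of 109, and from 82.1 to 119 in females, with a median of 112.

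Among structural and effector genes, Dclk1, the kinase most used as a tuft cell marker, averaged 396, at the 98.2nd percentile, with 362 to 431 (median 407) in males and 363 to 405 (median 393) in females. Across the arrays, Dclk1 and the mean of the fibroblast list had r = 0.43 (adjusted permutation p of 0.408), and 0.63 after the mean of each array set was removed. With the megakaryocyte list r was 0.48, and 0.59 after that removal. What part other cells had in the Dclk1 signal was not tested. Avil, the actin-binding protein advillin of the tuft, averaged 181, at the 80.3rd percentile. Its signal was 179 and 194 in XYM, 162, 184, 183 and 196 in XXM, 169.8, 182 and 184 in XYF, and 167, 176 and 188 in XXF. Each genotype held a low and a high array, and all 4 genotypes overlapped. Il25, the cytokine by which tuft cells alert type 2 lymphocytes, averaged 208, at the 87.1st percentile, with 175 to 224 (median 216) in males and 189 to 237 (median 205) in females. Alox5, the lipoxygenase that starts leukotriene synthesis in tuft cells and in myeloid cells, averaged 215, at the 87.8th percentile. Its signal was 223 and 249 in XYM, 193, 207, 214.5 and 217 in XXM, 204, 195 and 207 in XYF, and 221, 222 and 228 in XXF.

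**Figure D2:**
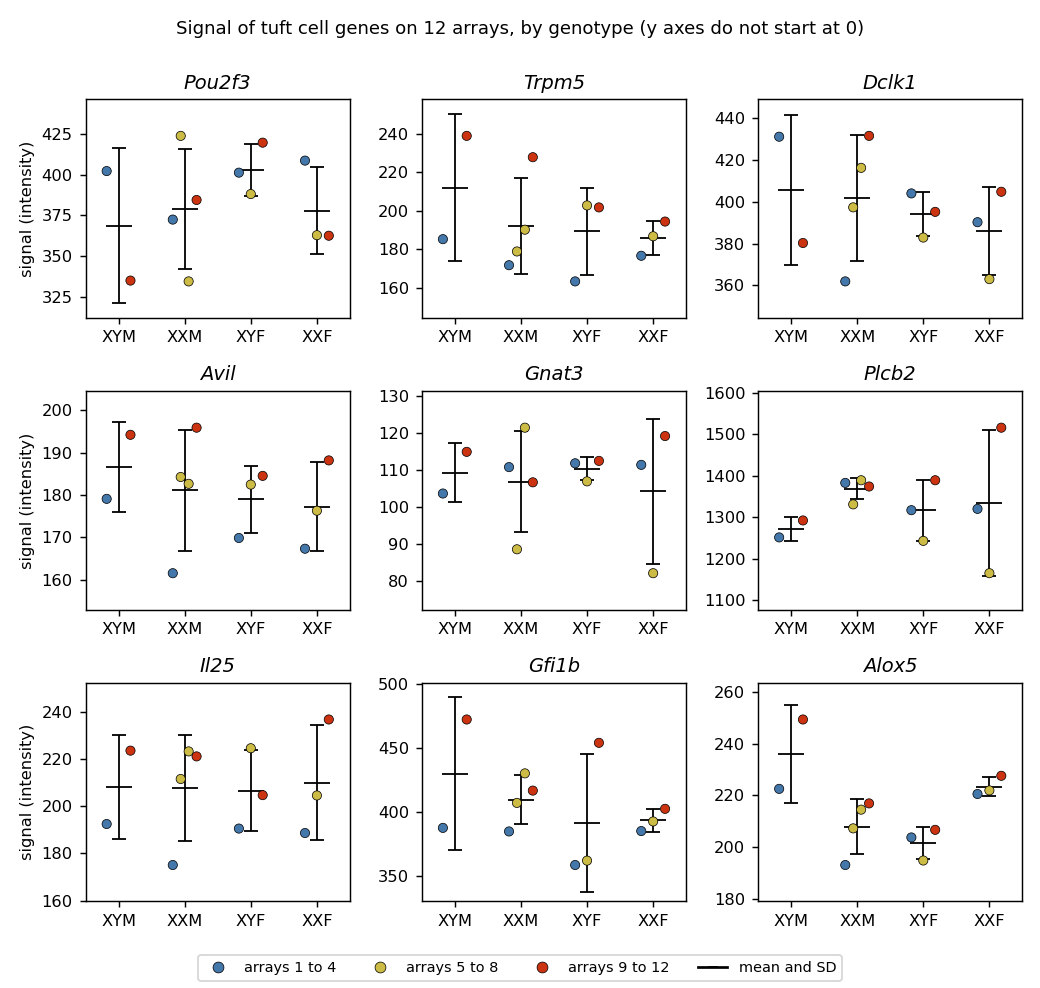
Signal (linear intensity; the y axes do not start at 0) of each of the 9 genes on every array, by genotype in the order XYM, XXM, XYF and XXF; the bar and whiskers are the mean and SD, and colours mark the arrays numbered 1 to 4, 5 to 8 and 9 to 12 in the labels. In the Alox5 panel both XYM arrays and all 3 XXF arrays lie above the XXM and XYF arrays, and in the Avil panel the red point (arrays 9 to 12) is the highest of each genotype.

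To ask whether gonadal sex altered the tuft cell genes, a model of the 4 genotype means was fitted with limma to all 35556 probe sets, and males (XYM and XXM) were compared with females (XYF and XXF). No difference by gonadal sex was detected in a tuft cell gene. At an adjusted p under 0.05, 0 of 9 genes were called, against 0.00281% of all probe sets; at an unadjusted p under 0.05, 0 of 9, against 3.03%. The log2 differences, male minus female, ran from -0.07 for Pou2f3 (SE 0.08) to 0.10 for Trpm5 (SE 0.10). Trpm5 averaged 199 ± 28 in males and 188 ± 15 in females (SD, n = 6 each). Gfi1b, with a log2 difference of 0.10 (SE 0.08), averaged 416 ± 32 in males and 392 ± 35 in females, and its unadjusted limma p of 0.242 was the lowest of the 9. Pou2f3 averaged 375 ± 36 in males and 391 ± 24 in females.

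Of the 9 log2 differences, 6 lay above 0, and their median was 0.04, beside 53.0% above 0 and a median of 0.01 over all named genes; with each array's median log2 Olfr signal subtracted, the median over the 9 genes turned to -0.083, as that of all named genes turned to -0.12. Males and females overlapped in all 9 genes; 0.0731% of all probe sets showed no overlap. Exact two-sided permutation tests over all groupings of the arrays gave p-values from 0.227 (Gfi1b) to 0.965 (Il25). Over the 9 genes, the highest upper bound of a 95% confidence interval was a male-to-female ratio of 1.24 (Trpm5) and the lowest lower bound 0.850 (Pou2f3). The intervals differed in width, with an SE from 0.06 (Alox5) to 0.11 (Gnat3) on the log2 scale. Within arrays 1 to 4, 5 to 8 and 9 to 12, each of which holds 2 male and 2 female arrays, the difference kept 1 sign in all 3 sets for Avil (0.01, 0.03 and 0.07) and Gfi1b (0.06, 0.15 and 0.05). For Trpm5 it was 0.07, -0.08 and 0.24. Markers of other cells leaned with sex on the same arrays: all 10 cortical markers had a log2 difference below 0 (median -0.08, summed signal 37286 to 45186 in males and 40947 to 47427 in females), and 10 of 13 markers of other mimetic cells one above 0 (median 0.10, summed signal 3066 to 3693 in males and 3118 to 3356 in females), none past the adjusted threshold. Their part in the tuft cell genes' values was not tested.

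The effect of chromosome complement was examined in the same fit, with XY (XYM and XYF) against XX (XXM and XXF). Again no difference was detected in a tuft cell gene. At an adjusted p under 0.05, 0 of 9 genes were called, against 0.0366% of all probe sets, and at an unadjusted p under 0.05, 0 of 9, against 2.55%. The log2 differences, XY minus XX, ran from -0.06 for Plcb2 (SE 0.07) to 0.08 for Trpm5 (SE 0.10). Plcb2 averaged 1299 ± 59 on the 5 XY arrays and 1354 ± 105 on the 7 XX arrays (SD), and it was the only gene whose difference lay below 0 in each of the 3 array sets. Pou2f3 averaged 389 ± 32 on XY arrays and 378 ± 30 on XX arrays, a log2 difference of 0.03 (SE 0.08) that lay above 0 in each of the 3 sets. In arrays 5 to 8 the difference by complement rests on 1 XY array. How many of all named genes kept 1 sign in the 3 sets was not counted, by complement or by sex.

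The differences by complement lay above 0 for 7 of 9 genes, with a median of 0.02, beside 53.1% and a median of 0.01 over all named genes; with the Olfr signal subtracted the medians were -0.04 over the 9 genes and -0.06 over all named genes. XY and XX arrays overlapped in all 9 genes, whereas 0.166% of all probe sets did not overlap. Exact two-sided permutation p-values ran from 0.350 (Plcb2) to 0.972 (Alox5), and the 95% intervals of the XY-to-XX ratio stayed between 0.863 and 1.23. Markers of other cells leaned with complement on the same arrays: all 12 medullary markers had a log2 difference above 0 (median 0.10, Aire 0.27 with an unadjusted limma p of 0.0084), and all 11 thymocyte markers one below 0 (median -0.12), although none passed the adjusted threshold. The summed thymocyte signal was 37998 to 39691 in XY and 39694 to 43798 in XX, and that of the medullary list 9315 to 10786 in XY and 8734 to 10084 in XX. Their part in the tuft cell genes' values was not tested.

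**Figure D3:**
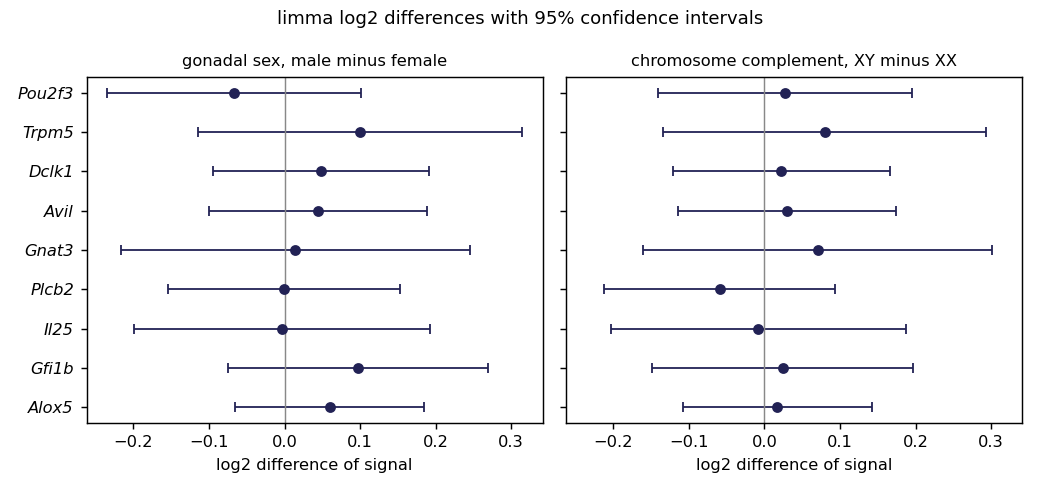
Log2 differences of signal (points) with 95% confidence intervals (bars) from limma for the 9 genes, male minus female on the left and XY minus XX on the right. Every interval includes 0, and the bounds run from -0.23 to 0.31.

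Whether the effect of complement depended on gonadal sex was tested as an interaction, the XY minus XX difference in males less that in females. At an adjusted p under 0.05, 0 of 9 genes were called, against 0% of all probe sets; at an unadjusted p under 0.05, 1 of 9, against 1.54%. That gene was Alox5. It averaged 236 ± 19 in XYM (SD, n = 2) and 208 ± 11 in XXM (n = 4), and 202 ± 6.2 in XYF and 223 ± 3.7 in XXF (n = 3 each), so that XY exceeded XX in males and lay below it in females. The interaction was 0.33 (SE 0.11), with an unadjusted limma p of 0.0144 and an adjusted p of 1.00. Without XYM array 9 it was 0.25 (unadjusted limma p of 0.078) and without XYM array 1 it was 0.41 (0.0082), where the lone XYM array left is assumed to vary like the other genotypes. With the Olfr median of each array subtracted it was 0.26 (unadjusted limma p of 0.116), and in the other alternatives that kept Alox5 the unadjusted p stayed below 0.05, down to 0.0033 without moderation. Myeloid cells also express Alox5. The interaction of the 10 macrophage markers had a median of 0.21, with 8 of 10 above 0, against 49.6% of all named genes. None of these markers had an unadjusted limma p under 0.05 (lowest 0.088, C1qa). Across the arrays, Alox5 and the mean of the macrophage list had r = -0.007 and rho = -0.007 (adjusted permutation p of 0.983 and 0.991). After the mean of each array set was removed, r was 0.28. With the mast cell list r was 0.36, and 0.82 after that removal. With the neutrophil list r was 0.43, and 0.11 after that removal. Before the removal, the adjusted permutation p-values for r were 0.493 with the mast cell list and 0.408 with the neutrophil list. What part myeloid cells had in the Alox5 values was not tested. Over all 4 genotypes, the F test called 0 of 9 genes at an adjusted p under 0.05, against 0.0281% of probe sets, and 0 of 9 at an unadjusted p under 0.05, against 1.99%.

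The genes were then compared with each other across the 12 arrays, since genes used by 1 cell type can vary together with its share of the tissue. The correlations were small for most pairs: over the 36 pairs of log2 signals the median Pearson r was 0.20, and 28 of 36 lay above 0. At a permutation p adjusted over the 36 pairs, 2 pairs passed, Avil with Il25 (r = 0.86, rho = 0.78, permutation p = 0.00023, adjusted p = 0.0083) and Trpm5 with Avil (r = 0.85, rho = 0.83, permutation p = 0.00066, adjusted p = 0.012). By Spearman's rho 4 pairs passed, these 2 and also Trpm5 with Il25 (r = 0.67, rho = 0.79) and Avil with Gfi1b (r = 0.62, rho = 0.78), each with an adjusted permutation p of 0.035 for rho, while their adjusted permutation p for r was 0.148 and 0.177. Trpm5 with Gfi1b (r = 0.68, rho = 0.65) passed by neither. Pou2f3, on which tuft cells depend, had an r below 0 with 7 of the other 8 genes, the exception being Dclk1 (r = 0.17).

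These correlations moved with the array number. Signal of Avil was higher on each of arrays 9 to 12 than on any of arrays 1 to 8, with a mean of 191 on arrays 9 to 12 and 175 on arrays 1 to 8, a log2 difference of 0.12. The same difference was 0.24 for Trpm5, 0.17 for Gfi1b, 0.14 for Il25, 0.13 for Gnat3, 0.10 for Alox5 and Plcb2, 0.04 for Dclk1 and -0.04 for Pou2f3. It was 0.04 in the median of all named genes and 0.20 in the median of the Olfr probe sets. In the median of named genes below the Olfr 95th percentile (dim) it was 0.15, and in that of named genes above it (bright) -0.05. Among the shifts of the dim named genes, that of Avil lay at the 40.9th percentile, that of Il25 at the 47.2nd and that of Trpm5 at the 83.5th. Among those of the bright named genes, Pou2f3 lay at the 52.8th percentile, Dclk1 at the 70.2nd, Plcb2 at the 82.0th and Gfi1b at the 90.1st.

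The median Olfr signal differed from array to array, with 102 and 131 in XYM, 94.3, 102, 118 and 118 in XXM, 95.1, 106 and 108 in XYF, and 91.3, 105 and 108 in XXF. Trpm5 followed it most closely (r = 0.89, rho = 0.90, permutation p = 0.00021, adjusted over 9 genes p = 0.0014), and r was 0.83 without the 2 arrays farthest from the median. Avil had r = 0.86 and rho = 0.90, Gfi1b r = 0.76 and rho = 0.77, and Il25 r = 0.76 and rho = 0.83, with adjusted permutation p-values for r of 0.0014, 0.010 and 0.010. After the mean of each array set was removed, r was 0.73 for Trpm5, 0.57 for Avil, 0.50 for Gfi1b and 0.29 for Il25. Pou2f3 ran against the Olfr median (r = -0.63 with an adjusted permutation p of 0.047, rho = -0.55 with one of 0.120), and r was -0.40 without the 2 farthest arrays and -0.67 after the mean of each array set was removed. What part this dim background had in the correlations among tuft cell genes was not tested.

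**Figure D4:**
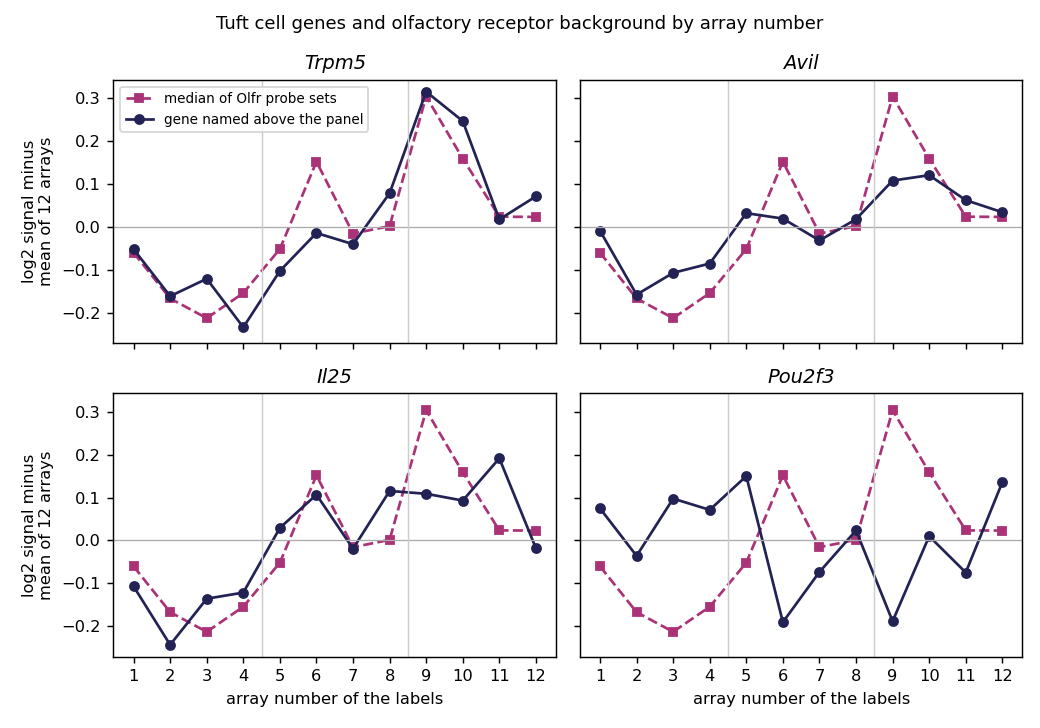
Log2 signal of Trpm5, Avil, Il25 and Pou2f3 (circles), each minus its mean over the 12 arrays, and the same for the median of the Olfr probe sets (squares), by the array number of the labels; vertical lines separate arrays 1 to 4, 5 to 8 and 9 to 12. Trpm5, Avil and Il25 are low on arrays 2 to 4 and high on arrays 9 and 10, as the Olfr median is, and Pou2f3 is lowest on arrays 6 and 9.

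Once the mean of each set of 4 arrays was removed, no pair passed the adjusted threshold, and the median r was 0.07. Avil with Il25 then had r = 0.58 and Trpm5 with Avil r = 0.53. Within a set of 4 arrays, Avil with Il25 had r = 0.84, 0.64 and 0.37, and Trpm5 with Avil r = 0.55, -0.02 and 0.85, in the order of the array numbers. Both pairs also missed the threshold without the 2 arrays farthest from the median of the first gene (r = 0.72 and 0.75, adjusted permutation p = 0.273 for both), which were XXM array 2 and XXF array 3 for Avil with Il25 and XYM array 9 and XXM array 10 for Trpm5 with Avil; leaving out extreme arrays also narrows the range and lowers n. Without XXM array 2 alone, Avil with Il25 had r = 0.79 and an adjusted permutation p of 0.064. After a renewed quantile normalization of the arrays the pairs had r = 0.37 and 0.32, and none passed.

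**Figure D5:**
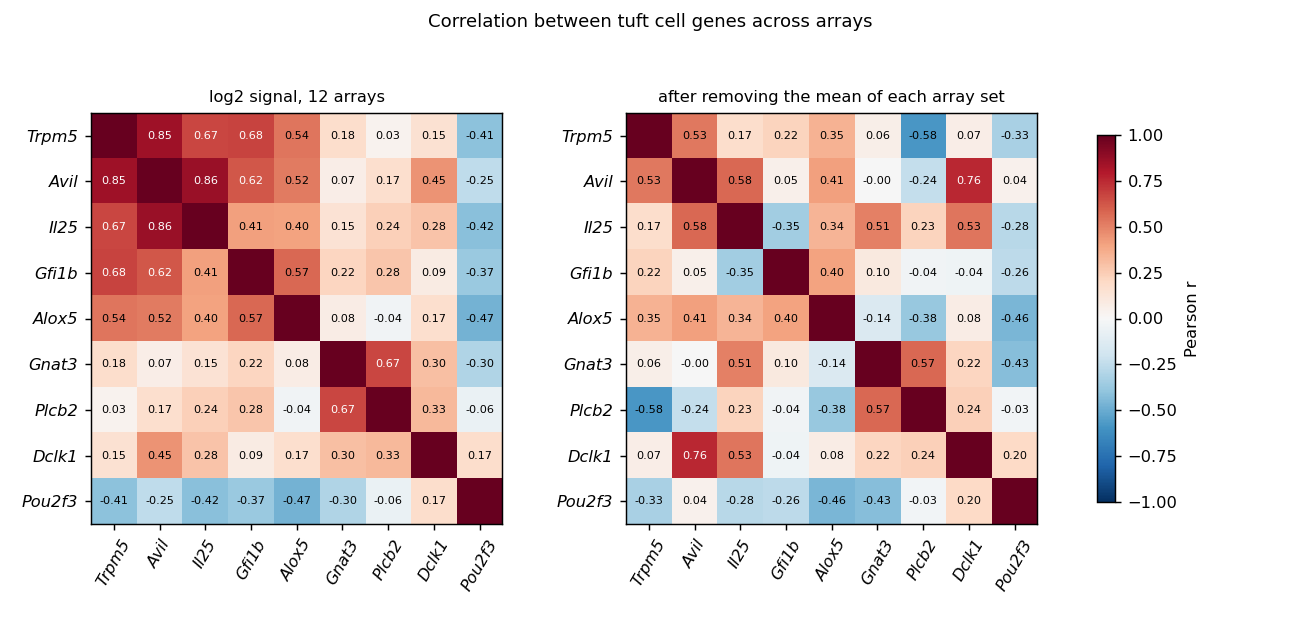
Pearson r between the 9 genes across the 12 arrays, for log2 signal on the left and after removing the mean of each set of 4 arrays on the right (colour scale from -1 to 1, r printed in each cell). Trpm5 with Avil and Avil with Il25, the highest r on the left, are 0.53 and 0.58 on the right.

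Each gene was also set against the mean of the other 8, with no test. Avil was the most like the rest (r = 0.79, higher than for 97.2% of named genes), followed by Trpm5 (r = 0.63, 84.1%), and Pou2f3 the least (r = -0.40, 27.0%). The order was another one for residuals from genotype and array set, where Dclk1 was highest (r = 0.67, 91.5%), Avil had r = 0.57 (84.0%), Trpm5 r = -0.16 (26.4%), Pou2f3 r = -0.21 (22.7%) and Gfi1b was lowest (r = -0.22, 21.1%). The genes outside the lists whose pattern over the 12 arrays was closest to the mean of the 9 were Mrgprg, Cd55b, Olfr480, Plekhg6 and Nxph2 (r = 0.94 to 0.95), of which Olfr480 is an olfactory receptor with a mean signal of 23.9. All 5 were higher on arrays 9 to 12, by 0.18 to 0.41 on the log2 scale. Against 11 lists of cell type markers, 0 of 99 correlations of a tuft cell gene with a list passed an adjusted permutation p of 0.05. The lowest adjusted p, 0.052, was shared by Avil with the neural list (r = 0.81, rho = 0.78), Trpm5 with the other mimetic cells of the medulla (r = 0.81, rho = 0.77), Il25 with the neural list (r = 0.80, rho = 0.72) and Avil with the megakaryocyte list (r = 0.79, rho = 0.73), all by permutation. Above the Olfr percentile lay 2 of 6 neural, 4 of 13 other mimetic and 3 of 6 megakaryocyte markers.

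Pou2f3 belongs to the POU factors, which read the octamer ATGCAAAT, so the promoters of the other tuft cell genes were searched for it in the 250 bases before the start, on both strands. RefSeq promoters (GRCm38.p6) were at hand for 7 of the genes (8 promoters), and not for Pou2f3 or Il25. None of the 8 held the whole octamer, which 1.6% of all 32851 promoters of this length held. With at most 1 letter changed, it occurred in 3 of 8, those of Avil, Gfi1b and Gnat3, against 16.6% of all promoters. The octamer is rich in A and T, and these 3 promoters had a GC content of 42%, 44.4% and 40.8%. The others had 46.8% to 62%, and the median of all promoters was 52.4%. The share among promoters of like GC content was not computed. The promoters of Avil (chr10:127000459-127000708, plus strand) and Trpm5 (chr7:143094643-143094892, minus strand) are given as those of the correlated pair, with each such near match in capitals:
Avil: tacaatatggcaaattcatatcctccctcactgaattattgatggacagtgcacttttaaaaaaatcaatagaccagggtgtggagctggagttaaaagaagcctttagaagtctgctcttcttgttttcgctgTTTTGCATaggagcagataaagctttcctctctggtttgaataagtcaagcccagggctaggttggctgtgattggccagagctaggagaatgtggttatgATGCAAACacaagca
Trpm5: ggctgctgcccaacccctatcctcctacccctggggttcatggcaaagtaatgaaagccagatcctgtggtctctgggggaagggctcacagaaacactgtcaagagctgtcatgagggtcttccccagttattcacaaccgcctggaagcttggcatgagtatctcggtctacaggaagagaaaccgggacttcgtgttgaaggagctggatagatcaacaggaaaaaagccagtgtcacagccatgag
Avil held 2 near matches, which began 116 and 15 bases before the start, and Trpm5 none. A match describes letters only and is no sign of binding.

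The wider tuft cell program was described from 3 further lists. Of their 91 measured genes, 33 (36.3%) lay above the Olfr 95th percentile, against 56.5% of all named genes, and the lists differed in this. In the list of transcription factors, 7 of 9 measured genes lay above it, led by Runx1 (3395), Hipk2 (1263), Sox4 (997) and Sox9 (577), all of which other cells of the thymus use as well. Among effector and structural genes, 21 of 33 (63.6%) lay above it, a share near that of all named genes. They were led by the keratin Krt18 (4847) and by Fyb (3147), Rac2 (2636) and Il4ra (2572), which leukocytes share. Il17rb, the receptor for interleukin 25, had a signal of 1217, and Chat, which makes acetylcholine, one of 134, both named here after their values were seen.

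Of the taste receptors and their signalling chain, only 5 of 49 genes (10.2%) lay above the percentile, against 56.5% of all named genes. Among these 5 were Gnb1 (3498), Itpr2 (3379) and Itpr3 (1247), a G protein subunit and calcium channels of many cell types, and Gng13 (629), the gamma subunit of taste cells. The fifth, Tas2r117 (342), was the only bitter taste receptor above the percentile of the 34 measured and is named after its value was seen. The 34 receptors had a median of 108, close to the Olfr median of 107.0, and the next brightest, Tas2r126, had 228.

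None of the 91 genes passed the adjusted threshold for sex, complement or their interaction. At an unadjusted p under 0.05, 4 of 91 were higher and 0 lower in males, a share near the 3.03% of all probe sets, the foremost being the bitter receptor Tas2r135, with 177 ± 17 in males and 149 ± 12 in females (SD, n = 6 each), a log2 difference of 0.23 (SE 0.08, limma adjusted p = 0.985). The neural adhesion gene L1cam followed among the effectors, with 240.2 ± 10 in males and 222 ± 9.6 in females (0.13, SE 0.05). In the taste list 42 of 49 genes had a log2 difference by sex above 0 (median 0.12), against 53.0% of all named genes (median 0.01). The probe sets of the taste list were mostly as dim as the Olfr probe sets, whose median signal per array is given above. What part this dim background had in the taste list's differences was not tested. For complement 1 was higher and 1 lower in XY, against 2.55% of all probe sets. Tslp, an epithelial cytokine of type 2 responses, had 74.8 ± 9.3 on XY arrays and 64.2 ± 5.2 on XX arrays (0.20, SE 0.09), and Rgs13, a regulator of G protein signalling, 32.2 ± 4.9 on XY arrays and 37.6 ± 3.9 on XX arrays (-0.25, SE 0.09). All 4 of these named genes lay below the Olfr percentile. For the interaction, 0 of 91 were higher and 1 lower, against 1.54%: Etv1 (log2 interaction -0.47), named after its value was seen.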

How the data were processed

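Thymic epithelium and stroma of 12 FCG samples was measured on 1 array each (XYM 2, XXM 4, XYF 3, XXF 3), grouped by the sample labels. The authors deposited 1 linear intensity per array for each of 35556 probe sets. Sources differ on how these were made: PLIER in Affymetrix Expression Console 1.1 (submitters' processing notes) or RMA with quantile normalization (the study's methods). No further normalization was applied, and log2 was taken without an offset. Dim intensity values carry background, which lowers fold changes. Array medians ran from 327.5 to 345.5, and precision is limited by how few arrays there are.

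The platform annotation, with symbols brought up to date through RefSeq (GRCm38.p6), gave a single symbol to 21789 probe sets, several to 1621 and none to 12146, and only the first kind was named. A gene with several probe sets (999 genes) was read from the brightest. The methods' two-way design was run in limma 3.58.1 under R 4.3.3 (lmFit, eBayes, 4 genotype means, Benjamini-Hochberg over all probe sets, threshold 0.05), after tests on simulated data. Single genes were tested by exact permutation of arrays, correlations by 100000 permutations (Python 3.11.15, scipy 1.17.1). Promoters came from a RefSeq table.

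The genes, lists and tests were chosen with earlier results of these data known. Named were all listed genes, the 4 brightest genes of each further tuft cell list and the 2 with the lowest p for sex and for complement, up to 3 of the brightest genes of a marker list, and the 5 genes most like the 9. Alternatives were an offset of 16, renewed quantile normalization, filters, no moderation, array weights, array sets as a block, and leaving out each array.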

Additional observations from a re-analysis of the deposited data

Results flagged for a closer look

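For each of the 9 genes, groups of 4 to 7 arrays were searched for an array far from the rest by Dixon's criterion, 45 groups in all, of which 2 held one. Chance alone flags about 1 in 20 groups. Trpm5 on XXM array 10 had a signal of 228, while the other 6 XX arrays lay between 172 and 194. Gnat3 on XXF array 7 had a signal of 82.1, while the other 5 female arrays lay between 107 and 119, and Gnat3 was at the level of a median olfactory receptor probe set throughout.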

How the results depend on the processing

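The count of 0 tuft cell genes called by sex, complement, interaction or genotype was 0 under every alternative that gave a value (the additive model gives no interaction or genotype test, and the filter on dim probe sets keeps 4 genes) and without each array in turn (0 to 0). The array numbers of the labels are unique and pair no samples; with the 3 array sets as a block the counts of called genes were 0 as well. The median log2 difference by sex ran from 0.01 to 0.07 and that by complement from -0.01 to 0.06 with 1 array left out. With the median log2 Olfr signal of each array subtracted, an alternative chosen after seeing the data, the median by sex was -0.083. Dclk1 (-0.08), Avil (-0.08), Plcb2 (-0.13), Gfi1b (-0.03), Alox5 (-0.07), Pou2f3 (-0.20), Trpm5 (-0.03), Gnat3 (-0.11) and Il25 (-0.13) all lay below 0, none past the threshold. In this alternative only 11.7% of all named genes lay above 0. Genes above the receptor reference numbered 1 at the 99th percentile of Olfr, 8 at the 95th percentile of vomeronasal receptors, and 4 to 4 without each array in turn.

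The median r over pairs was 0.072 for residuals from array sets, -0.014 after a renewed quantile normalization, 0.065 on arrays 1 to 8 only (chosen after seeing the data), 0.52 with the Olfr median subtracted, which gives all genes a shared term, and 0.18 to 0.28 without each array in turn. Pairs past the threshold numbered 1 for residuals from genotype means, 0 for residuals from array sets, 0 after a renewed quantile normalization, 0 on arrays 1 to 8, 0 without the 2 farthest arrays, 8 with the Olfr median subtracted, and 1 to 3 without each array in turn. Without XXM array 2 the pair Avil with Il25 had r = 0.79 and an adjusted permutation p of 0.064. After the renewed quantile normalization Trpm5 with Avil had r = 0.32 and Avil with Il25 r = 0.37. The causes were not tested.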
